A study of Mus musculus with 28 samples.

Results

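The molecules described here are 9 genes that carry white blood cells from the blood stream to the vessel wall: Vcam1, Icam1, Icam2, Sele, Selp, Selplg, Itga4, Itgb2, and Itgam. They were chosen by name, as a list of adhesion molecules of the vessel wall and of leukocytes, from a bulk RNA-seq table of 56980 genes. All 9 passed the filter on low counts, which left 12673 genes for testing. The study followed the mouse carotid-jugular arteriovenous fistula (AVF), the surgical joining of a vein to an artery that serves as access for hemodialysis. Outflow veins were taken early (day 3), at a mid point (day 10), and late (day 21) after surgery (the days named in the labels, around which harvests varied by the study's methods, most widely in the early group), and jugular veins of the opposite side served as controls. The labels give no day for these veins, which form 1 group set against all 3 times. Bulk RNA was sequenced from 8 early, 5 mid, and 5 late AVFs and from 7 contralateral veins, 1 library for each vessel, and single cells were sequenced from 3 pools of vessels (contralateral, early, and late). The days given are those of the bulk vessels: the early and late single-cell pools were taken on other days, later on average, by the study's methods, so the names do not mark the same time in both assays.

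All mice were C57BL/6, of both sexes, and had chronic kidney disease from a subtotal nephrectomy that preceded the AVF, so the contralateral veins also came from animals with reduced kidney function. This AVF was of the end-to-side kind, with the carotid artery opening into the jugular vein. The bulk groups held 5 female and 2 male mice (contralateral), 3 and 5 (early), 3 and 2 (mid), and 3 and 2 (late), and the age of the mice is not given in the sources used here. Each single-cell pool mixed vessels of male and female mice, so sex could not be read from these libraries. A bulk library holds the RNA of every cell in the vessel wall, and in it a change in the number of cells of 1 type and a change in the RNA of each cell cannot be told apart.

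Leukocytes leave the blood in steps. The selectins of activated endothelium, E-selectin (Sele) and P-selectin (Selp), catch P-selectin glycoprotein ligand 1 (PSGL-1, encoded by Selplg) on leukocytes and make them roll along the wall. Integrins on the leukocyte then hold it in place: the beta chain CD18 (Itgb2) pairs with the alpha chain CD11b (Itgam) in Mac-1 and binds ICAM-1 (Icam1), other CD18 integrins bind ICAM-2 (Icam2), and the alpha-4 chain (Itga4) in VLA-4 binds VCAM-1 (Vcam1). P-selectin is also stored in platelets, and E-selectin, ICAM-1, and VCAM-1 are known for rising on endothelium under inflammatory signals, which reach the promoters of their genes in part through the transcription factor NF-kB.

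The 9 genes lie on 8 chromosomes (RefSeq, GRCm38.p6). Sele (chr1:164039614-164058487) and Selp (chr1:164115264-164150026) are neighbors on chromosome 1. Itga4 lies at chr2:79255426-79333114, Vcam1 at chr3:116110020-116129688, Selplg at chr5:113817798-113832528, Itgam at chr7:128062640-128118491, Icam1 at chr9:21015940-21028814, Itgb2 at chr10:77530329-77565708, and Icam2 at chr11:106377656-106388139. The promoter window of Sele lies within the listed span of that gene. The promoters of the members were looked up because the selectins and Icam1 are textbook NF-kB targets. A RefSeq promoter window, from 250 bases before to 50 bases after the gene's start, was found for 5 of the 9 members (Icam1, Sele, Selp, Itga4, and Itgam), while Vcam1, Icam2, Selplg, and Itgb2 had none in the table. The 250 bases before the start are shown for the 4 windows that held a motif, in the build GRCm38.p6. They lie on the plus strand at chr1:164047984-164048233 (Sele), chr1:164115014-164115263 (Selp), chr9:21015690-21015939 (Icam1), and chr7:128062390-128062639 (Itgam). Capitals mark matches, on either strand, to an NF-kB-like motif (GGNNNTTCC), a TATA box (TATAAA), or a purine box bound by PU.1-type factors of myeloid cells (GAGGAA).
Sele: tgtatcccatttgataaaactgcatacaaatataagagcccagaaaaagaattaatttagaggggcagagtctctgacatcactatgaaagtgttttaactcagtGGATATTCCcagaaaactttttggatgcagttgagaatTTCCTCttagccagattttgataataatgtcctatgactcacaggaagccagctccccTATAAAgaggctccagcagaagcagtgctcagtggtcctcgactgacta
Selp: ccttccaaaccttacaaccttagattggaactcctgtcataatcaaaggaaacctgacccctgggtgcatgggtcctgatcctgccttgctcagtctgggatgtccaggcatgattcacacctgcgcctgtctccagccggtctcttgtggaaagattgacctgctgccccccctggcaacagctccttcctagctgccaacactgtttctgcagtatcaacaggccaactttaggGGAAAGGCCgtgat
Icam1: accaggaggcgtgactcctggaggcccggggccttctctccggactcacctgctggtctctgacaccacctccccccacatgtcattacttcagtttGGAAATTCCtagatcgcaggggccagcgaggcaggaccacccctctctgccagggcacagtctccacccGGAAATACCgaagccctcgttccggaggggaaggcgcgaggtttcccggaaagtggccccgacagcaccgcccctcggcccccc
Itgam: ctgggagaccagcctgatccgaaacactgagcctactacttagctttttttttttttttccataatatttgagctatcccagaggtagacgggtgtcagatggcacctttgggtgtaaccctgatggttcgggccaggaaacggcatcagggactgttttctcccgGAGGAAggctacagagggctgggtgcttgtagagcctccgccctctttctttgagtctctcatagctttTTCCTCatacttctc
Sele held GGATATTCC at position -145 and TATAAA at -49 relative to the start site, Icam1 held GGAAATTCC at -153 and GGAAATACC at -84, and Selp held GGAAAGGCC at -14. The Sele window also held the purine box at -107, and the Itgam window held it at -84, -15, and 32. The match at 32 and a TATAAA of Icam1 at 13 lie after the start and outside the stretches shown. GGNNNTTCC was found in 18.477% of all 32851 mouse windows, TATAAA in 13.616%, and GAGGAA in 28.276%. The motifs were chosen after these windows had been read. None of the printed matches overlaps another, except that GGAAATTCC of Icam1 matches on both strands. A match describes letters, not a bound site.

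In edgeR's quasi-likelihood test, the members called in bulk against contralateral veins were all genes of the leukocyte side. In early AVFs, 3 of the 9 members rose past the threshold and none fell: Selplg, Itgb2, and Itgam, each of which is made by leukocytes. The background was 6.17% of all tested genes called higher and 6.45% called lower in that comparison. At the mid and late points Selplg remained past the threshold, as 1 member of 9 in each, against 2.74% and 2.49% of all genes called higher. The median log2 fold change of the 9 members was 0.96 at day 3, 1.18 at day 10, and 0.91 at day 21, beside -0.01, -0.10, and -0.09 over all genes tested. A gene was called where edgeR's quasi-likelihood test, adjusted over all 12673 genes by Benjamini-Hochberg, gave an adjusted p under 0.01 and the log2 fold change was at least 1 in size. The 3 time points share the same contralateral veins, so their values are given side by side and are not independent of each other.

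**Figure D1:**
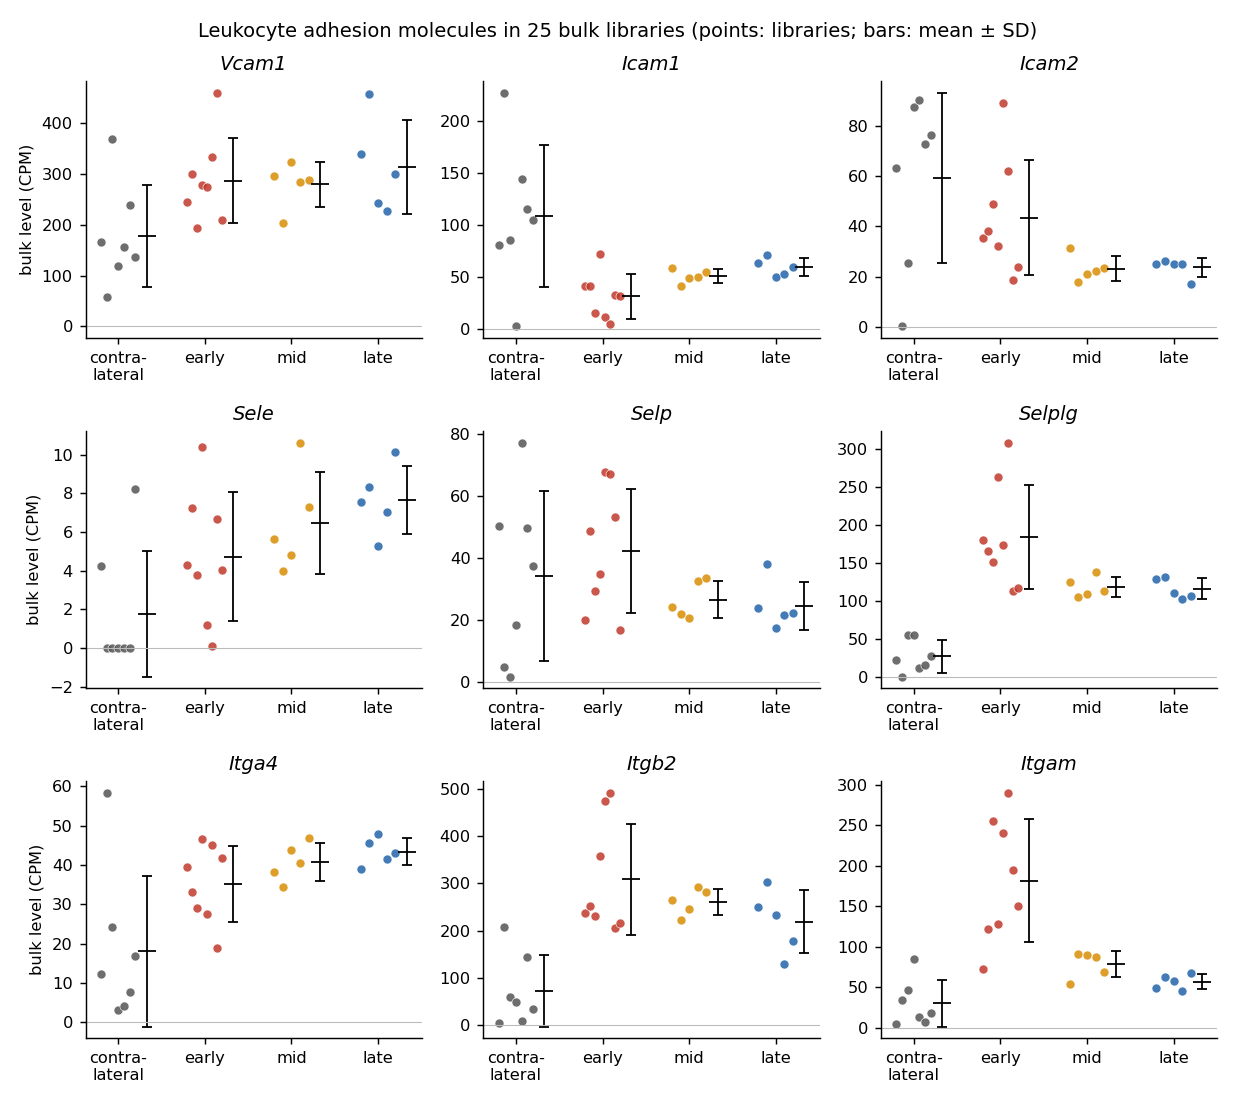
Level of each of the 9 members in CPM (counts per 1000000 of the scaled library size) in every bulk library, by group (contralateral, early, mid, late), with 1 point for each vessel and bars for the mean and SD of the group. Selplg in early AVFs (113 to 308 CPM) lies above every contralateral vein (0.562 to 55.8 CPM), while Icam2 and Selp overlap between groups.

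The contralateral veins were uneven libraries. Total counts overlapped among groups, with early AVFs 5 and 6 the deepest (20254173 to 29913427 in contralateral veins, 23676215 to 67457501 in early, 27021483 to 33395623 in mid, and 27855449 to 36879746 in late AVFs). However, 363 to 2848 of the tested genes had no count in a contralateral vein, against 14 to 595 in an early, 15 to 38 in a mid, and 10 to 30 in a late AVF. The median Spearman correlation of a library with its own group was 0.587 to 0.741 for contralateral veins and 0.801 to 0.964 for AVFs. The veins numbered 28, 31, 34, and 632 had the most genes at 0, and calls gained without these 4 veins are given with each member. The labels name each library as a vessel of its own, and p-values measure the spread among these vessels.

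Selplg encodes PSGL-1, the ligand by which leukocytes roll on selectins. Its lowest, median, and highest levels were 0.562, 22.0, and 55.8 CPM in contralateral veins and 113, 170, and 308 CPM in early AVFs. The 5 mid AVFs had 125, 105, 109, 138, and 114 CPM, and the 5 late AVFs had 129, 132, 110, 102, and 107 CPM. Every AVF exceeded every contralateral vein, so the groups did not overlap in any of the 3 comparisons. Such a separation in the higher direction was seen in 4.47% of all tested genes at day 3, 7.32% at day 10, and 6.25% at day 21. The log2 fold change was 2.76 ± 0.49 (SE) in early AVFs (adjusted p = 0.000137), 2.12 ± 0.51 in mid AVFs (adjusted p = 0.00565), and 2.10 ± 0.51 in late AVFs (adjusted p = 0.00683). The call at day 3 held when any 1 of the 25 libraries was left out. The mid call held in 18 of those 25 fits (highest adjusted p 0.0151, with mid AVF 14 left out) and the late call in 16 (highest adjusted p 0.0175, with late AVF 16 left out). The mid call was lost without contralateral vein 35 or 632 or any 1 of the 5 mid AVFs, and the late call without vein 27, 35, or 632, mid AVF 13, or any 1 of the 5 late AVFs. With only the groups compared in the fit, Selplg lost the mid (2.15, adjusted p = 0.088) and late calls (2.12, adjusted p = 0.101), and in female mice alone it lost all 3 (adjusted p = 0.0723, 0.219, and 0.199).

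Itgb2, the CD18 chain that all beta-2 integrins share, was measured at 5.18, 48.2, and 208 CPM (lowest, median, and highest) in contralateral veins and at 206, 245, and 491 CPM in early AVFs. Early AVFs were higher in 55 of 56 pairs of an AVF and a vein, and the pair that broke the order was vein 28 and early AVF 7. The log2 fold change was 2.09 ± 0.50 (adjusted p = 0.00325), and it stayed past the threshold in each of the 25 fits without 1 library. The 5 mid AVFs had 265, 222, 246, 291, and 281 CPM, all above the highest vein, with a log2 fold change of 1.85 ± 0.54 that missed the threshold (adjusted p = 0.0231), though DESeq2 (1.81, adjusted p = 0.00808) and voom (3.76, adjusted p = 0.000769) called it. The 5 late AVFs had 249, 302, 233, 130, and 177 CPM and overlapped with veins 28 and 632 (log2 fold change 1.59 ± 0.54, adjusted p = 0.0534), and voom alone of these tools called the difference (3.54, adjusted p = 0.00209). Without vein 28 alone the mid and late values were called (2.41, adjusted p = 0.00228, and 2.16, adjusted p = 0.00603). Without veins 28, 31, 34, and 632 the log2 fold changes of Itgb2 were 4.26 in early (adjusted p = 5.28e-06), 4.02 in mid (adjusted p = 2.75e-05), and 3.77 in late AVFs (adjusted p = 5.46e-05), all past the threshold, and voom gave 3.75 in early AVFs (adjusted p = 0.00038). The call at day 3 was lost when only the groups compared were fitted (2.12, adjusted p = 0.0258), in female mice alone (2.33, adjusted p = 0.107), and without early AVFs 5 and 6 (1.87, adjusted p = 0.0134).

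Itgam, the CD11b chain found on monocytes, macrophages, and neutrophils, differed most among the AVF times. Its lowest, median, and highest levels were 5.22, 18.3, and 85.5 CPM in contralateral veins and 72.8, 173, and 290 CPM in early AVFs (289.6 CPM in early AVF 6). The 5 mid AVFs had 54.8, 91.2, 89.9, 87.2, and 69.1 CPM, and the 5 late AVFs had 49.8, 63.2, 57.6, 45.7, and 68.0 CPM. Early AVFs exceeded the veins in 55 of 56 pairs, with vein 34 above early AVF 1, and the log2 fold change was 2.58 ± 0.45 (adjusted p = 0.000133). Mid and late AVFs overlapped with the veins, of which vein 34 lay above every late AVF. Their log2 fold changes against contralateral veins were 1.37 ± 0.47 (adjusted p = 0.0562) and 0.91 ± 0.47 (adjusted p = 0.236). Without vein 34 the mid difference was called (adjusted p = 0.00395), and without veins 28, 31, 34, and 632 both were called (2.68, adjusted p = 0.000167, and 2.22, adjusted p = 0.000906). With limma's voom and quality weights the early fold change was 3.20 and missed the threshold (adjusted p = 0.0134), as it did in female mice alone (2.58, adjusted p = 0.0253).

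Itga4, the alpha-4 chain of the receptor for VCAM-1, which lymphocytes and monocytes carry, had 3.22, 12.1, and 58.3 CPM (lowest, median, and highest) in contralateral veins and 19.0, 36.3, and 46.5 CPM in early AVFs. The 5 mid AVFs lay at 34.3 to 46.9 CPM and the 5 late AVFs at 39.0 to 47.9 CPM. Vein 28 lay above every AVF, while the other 6 veins lay below every mid and late AVF and below all early AVFs but one. The log2 fold change was 0.96 ± 0.44 in early (adjusted p = 0.124), 1.18 ± 0.49 in mid (adjusted p = 0.121), and 1.27 ± 0.49 in late AVFs (adjusted p = 0.0969), none past the threshold. Without vein 28 it was 1.65 (adjusted p = 0.00146), 1.86 (adjusted p = 0.00197), and 1.96 (adjusted p = 0.00147), all past it, and without veins 28, 31, 34, and 632 it was 1.68, 1.89, and 1.99 (adjusted p = 0.000597, 0.00065, and 0.000532).

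On the wall side, 0 of 5 members passed the threshold of edgeR's test against contralateral veins in any AVF group, while at an unadjusted p under 0.05 there were 2 in early (Vcam1 and Icam1), 2 in mid (Vcam1 and Icam2), and 1 in late AVFs (Vcam1). Over all 12673 genes, 4339, 3278, and 3148 were under that p, so these counts are near the background. DESeq2 and the likelihood ratio test called 1 of the 5, Icam1 in early AVFs, and voom called none. In early AVFs these tools called 2440, 2166, and 588 of all genes, in that order. Vcam1, which holds leukocytes through VLA-4 and is made by endothelium, smooth muscle cells, and fibroblasts, had 58.7, 157, and 370 CPM (lowest, median, and highest) in contralateral veins and 194, 276, and 460 CPM in early AVFs. The mid AVFs had 297, 204, 324, 285, and 289 CPM and the late AVFs 340, 457, 243, 228, and 301 CPM. Vein 31 (370 CPM) lay above all AVFs except early AVF 7 and late AVF 17, so that the groups overlapped. The log2 fold change was 0.69 ± 0.27 in early (adjusted p = 0.0724), 0.65 ± 0.31 in mid (adjusted p = 0.174), and 0.82 ± 0.30 in late AVFs (adjusted p = 0.0822). Without vein 31 the late value was 1.18 and past the threshold (adjusted p = 0.00643), and without veins 28, 31, 34, and 632 it was 1.05 (adjusted p = 0.00994).

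Icam1, the ligand of the CD18 integrins, was the member with the lowest fold change in early AVFs. Contralateral veins had 2.72, 105, and 228 CPM (lowest, median, and highest) and early AVFs 4.78, 32.5, and 72.8 CPM. The mid AVFs had 58.8, 41.2, 49.4, 50.4, and 55.6 CPM and the late AVFs 63.5, 71.6, 49.99, 53.3, and 59.8 CPM. Vein 34 alone, at 2.72 CPM, lay below the AVFs, and the other veins lay at or above 81.5 CPM, higher than every AVF. The log2 fold change was -1.78 ± 0.51 in early (adjusted p = 0.0126), -1.09 ± 0.59 in mid (adjusted p = 0.249), and -0.87 ± 0.59 in late AVFs (adjusted p = 0.385). The early value was called in 2 of 25 fits, without vein 34 (adjusted p = 0.000538) and without early AVF 4, and it was called by DESeq2, by edgeR's likelihood ratio test, and under the filter of edgeR's filterByExpr. Without veins 28, 31, 34, and 632 it was also called (-1.79, adjusted p = 0.00385), and in voom, in female mice alone, and with only the groups compared it was not.

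Icam2, a ligand of CD18 integrins that endothelium makes without stimulation, ranged from 0.125 to 90.2 CPM in contralateral veins (median 72.8) and from 18.7 to 89.1 CPM in early AVFs (median 36.7). Mid AVFs had 17.9 to 31.5 CPM and late AVFs 17.0 to 26.4 CPM. Early AVFs lay within the range of the veins, and mid and late AVFs lay below 5 of the 7 veins, all but veins 28 and 31. The log2 fold change was -0.45 ± 0.56 in early (adjusted p = 0.62), -1.36 ± 0.66 in mid (adjusted p = 0.191), and -1.33 ± 0.66 in late AVFs (adjusted p = 0.211). Without vein 28 the mid and late values were past the threshold (-1.56, adjusted p = 0.00498, and -1.52, adjusted p = 0.00664), as they were without veins 28, 31, 34, and 632 (-1.72, adjusted p = 0.00207, and -1.68, adjusted p = 0.00268).

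The endothelial selectins did not pass the threshold in either direction. Sele, the E-selectin gene, had no count in 5 of the 7 contralateral veins, 4.23 CPM in vein 27, and 8.24 CPM in vein 633. It was counted in every AVF, at 0.109 to 10.4 CPM in early, 3.97 to 10.6 CPM in mid, and 5.26 to 10.1 CPM in late AVFs. Its log2 fold changes of 1.40 ± 1.19, 1.85 ± 1.31, and 2.10 ± 1.31 had wide errors (adjusted p = 0.443, 0.404, and 0.345 in early, mid, and late AVFs). Selp, the P-selectin gene of endothelium and platelets, ranged from 1.88 to 77.0 CPM in contralateral veins, 17.0 to 67.7 CPM in early, 20.8 to 33.5 CPM in mid, and 17.6 to 37.9 CPM in late AVFs. Its log2 fold changes were 0.30 ± 0.51, -0.36 ± 0.58, and -0.47 ± 0.58 (adjusted p = 0.728, 0.758, and 0.673), and each AVF group lay within the range of the veins. The direction in early AVFs turned to -0.37 without veins 28, 31, 34, and 632 and to -0.18 with voom.

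**Figure D2:**
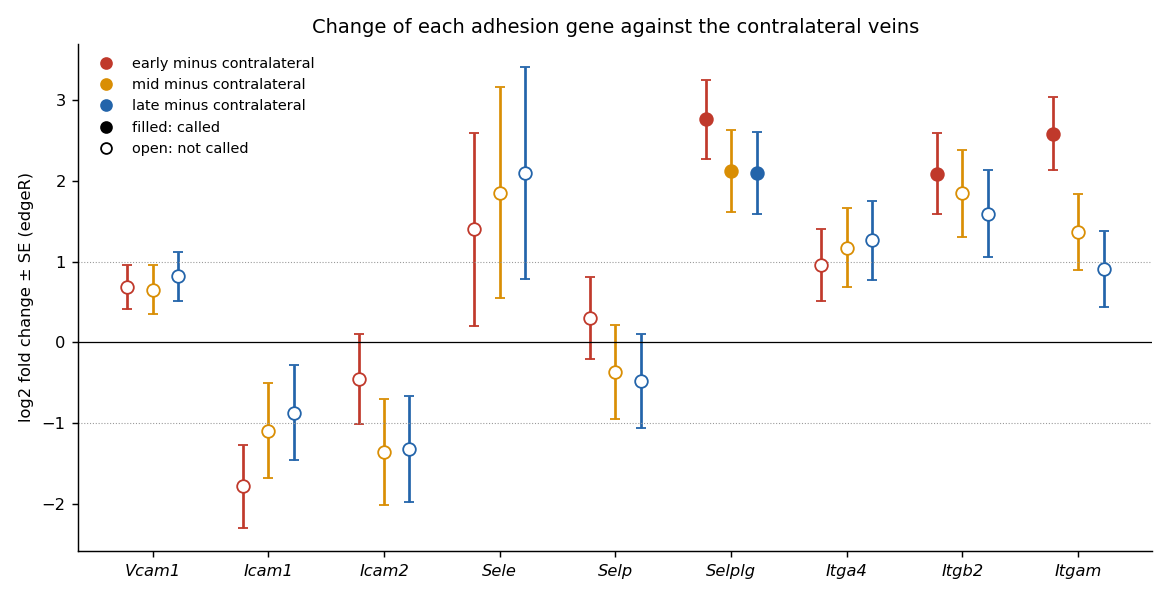
Log2 fold change of each member against contralateral veins in early, mid, and late AVFs, with bars of 1 SE and filled points for calls. Selplg is called at all 3 times (2.76, 2.12, and 2.10), Itgb2 and Itgam are called in early AVFs (2.09 and 2.58), and the 5 wall molecules are not called.

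Among the AVF groups, Itgam was the member that differed most. Late AVFs had less Itgam than every early AVF (57.6 against 173 CPM in median), a separation in the lower direction that 8.39% of all tested genes showed, with a log2 difference of -1.68 ± 0.49 (adjusted p = 0.0361). The mid minus early difference was -1.21 ± 0.48 (adjusted p = 0.213). Neither passed the threshold in edgeR's quasi-likelihood test, nor did any other member, and 0 of 9 members were called in any of the 3 comparisons between AVF times. The background was 0.00789% of genes called for mid against early, 3.01% for late against early, and 0.00% for late against mid. At an unadjusted p under 0.05 there was 1 of 9 members (Itgam) in mid against early and in late against early and 0 of 9 in late against mid, where 1614, 2016, and 39 of all 12673 genes were under that p. DESeq2 and voom each called Itgam lower in late than in early AVFs, and DESeq2, the likelihood ratio test, and voom called 0 members in the other 2 comparisons. The adjusted p of the other 8 members was at least 0.742 in mid against early, at least 0.501 in late against early, and 1 in late against mid.

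Markers of the cells that make these molecules moved in the same libraries. Of 16 monocyte and macrophage markers, 12 were called higher at day 3, 3 at day 10, and 3 at day 21, and their summed level rose from 2287 to 8621 CPM in contralateral veins to 17755 to 46020 CPM in early AVFs. In mid and late AVFs that sum was 12225 to 17041 and 8561 to 17358 CPM. Of 12 neutrophil markers, 8 were called higher in early and 4 in mid and late AVFs, and 1 was called lower in late AVFs. Their sum was 145 to 398 CPM in contralateral veins and 391.6 to 4998 CPM in early AVFs. It was 231 to 500 CPM in mid and 183 to 379 CPM in late AVFs. In contrast, of 16 endothelial markers 10 were called lower at day 3, 8 at day 10, and 7 at day 21, with a sum of 3769 to 7772 CPM in contralateral veins and 601 to 1088 CPM in early, 947 to 1343 CPM in mid, and 1192 to 1472 CPM in late AVFs. None of the endothelial markers was called higher. Of 11 smooth muscle markers 10 were called lower at day 3, 9 at day 10, and 9 at day 21, with a sum of 15758 to 32559 CPM in contralateral veins and 1730 to 4366 CPM in early, 2546 to 3100 CPM in mid, and 3173 to 5067 CPM in late AVFs. Of 12 fibroblast markers 5 were called lower in early AVFs, 1 in mid, and 0 in late, with a sum of 18090 to 45353 CPM in contralateral veins and 3904 to 41947 CPM in early, 39674 to 61266 CPM in mid, and 35349 to 74135 CPM in late AVFs. Of 10 platelet markers tested, 2 were called higher in early AVFs, and the sum of all 11 markers of that list was 277 to 595 CPM in contralateral veins and 414 to 12859 CPM in early AVFs. The platelet sum was 245 to 535 CPM in mid and 360 to 1009 CPM in late AVFs. Early AVFs 5 and 6, with the highest platelet sums (9676 and 12859 CPM), also had the highest Selp of their group (67.7 and 67.2 CPM). The part of these shifts in the levels of the 9 members was not tested beyond the ratios given next.

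Ratios within a library set members against markers of a class of cells that carries them. Vcam1 and Icam1 were not set in ratios. The 4 leukocyte genes were set against Ptprc (CD45, carried by all leukocytes), and Icam2, Sele, and Selp against the summed endothelial markers, on log2(CPM + 1), in 21 exact two-sided permutation tests over vessels. Ptprc itself ranged from 0.687 to 349 CPM in contralateral veins and from 176 to 386 CPM in early AVFs. Selplg stood at -0.66 ± 0.34 (SD, n = 8) relative to Ptprc in early AVFs and -1.89 ± 1.02 (SD, n = 7) in contralateral veins, a difference of 1.23 (exact permutation, adjusted p = 0.031). Against the sum of Cd68, Csf1r, and Csf3r the difference was 1.33 (exact permutation, adjusted p = 0.0778). The mid and late differences were 0.87 and 0.95 (exact permutation, adjusted p = 0.225 and 0.197). For Itga4, Itgb2, and Itgam no ratio to Ptprc passed an adjusted p of 0.05, and the SD of these ratios over the contralateral veins was 3.63, 3.68, and 2.82, larger than any of the differences. Without contralateral vein 28, Selplg differed by 1.17 in mid and 1.24 in late AVFs (exact permutation, adjusted p = 0.0101 and 0.0152), Itgb2 by 2.11 in early and 2.15 in mid AVFs (exact permutation, adjusted p = 0.0101 and 0.0455), and Itgam by 1.96 in early AVFs (exact permutation, adjusted p = 0.00979), all past 0.05.

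Relative to the endothelial markers, all 3 wall genes tested this way stood higher in early AVFs. The difference was 2.57 for Icam2 (exact permutation, adjusted p = 0.00163), 3.86 for Sele (adjusted p = 0.00544, exact permutation), and 3.25 for Selp (exact permutation, adjusted p = 0.00163). In mid AVFs it was 1.39 for Icam2 (exact permutation, adjusted p = 0.405), 4.05 for Sele (exact permutation, adjusted p = 0.0106), and 2.31 for Selp (exact permutation, adjusted p = 0.0341). In late AVFs it was 1.27, 4.14, and 2.02 in that order (exact permutation, adjusted p = 0.603, 0.0106, and 0.0663). Without vein 28, Icam2 differed by 1.62 in early AVFs (exact permutation, adjusted p = 0.0035) and by 0.44 and 0.32 in mid and late AVFs (exact permutation, adjusted p = 0.172 and 0.359), and Selp in late AVFs by 1.59 (exact permutation, adjusted p = 0.0152). With Pecam1 alone as the reference, Icam2 and Selp in early AVFs differed by 1.91 and 2.59 (exact permutation, adjusted p = 0.0268 and 0.0163), Sele by 3.20, 3.11, and 3.23 (exact permutation, adjusted p = 0.0163, 0.0199, and 0.0199), and Selp in mid AVFs by 1.37 (exact permutation, adjusted p = 0.139). Sele is at 0 in 5 veins, so its contralateral ratio there reflects the reference and the added 1 CPM, and with 0.1 CPM added instead its differences were 5.73, 6.28, and 6.41 (exact permutation, adjusted p = 0.0106 for each). The part of platelet transcripts in the Selp ratio was not tested. Endothelial-like cells of the contralateral, early, and late single-cell libraries described below held 92.5%, 48.9%, and 26.8% of the Sele UMIs. They held 84.7%, 47.5%, and 75.4% of the Selp UMIs and 79.6%, 59.7%, and 36.8% of the Icam2 UMIs. The part of transcripts of other cells in the 3 ratios was not tested.

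The single-cell libraries show which cells held these transcripts. After filtering, 6319 contralateral, 4753 early, and 5821 late cells were kept of 26438 barcodes, with a median of 2751, 8951, and 15425 UMIs per cell, and 11 to 12 kept barcodes of each library also occurred in another. Clusters were named from marker genes fixed apart from the 9 members, and named classes are called endothelial-like and so on. With 1 library for each condition there was no test, and every interval given is a 95% interval of counting error only. Levels are CPM of summed UMIs in a class, and classes with under 50 cells in a library were left without a value. Endothelial-like cells numbered 804, 63, and 76 in the contralateral, early, and late libraries.

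**Figure D3:**
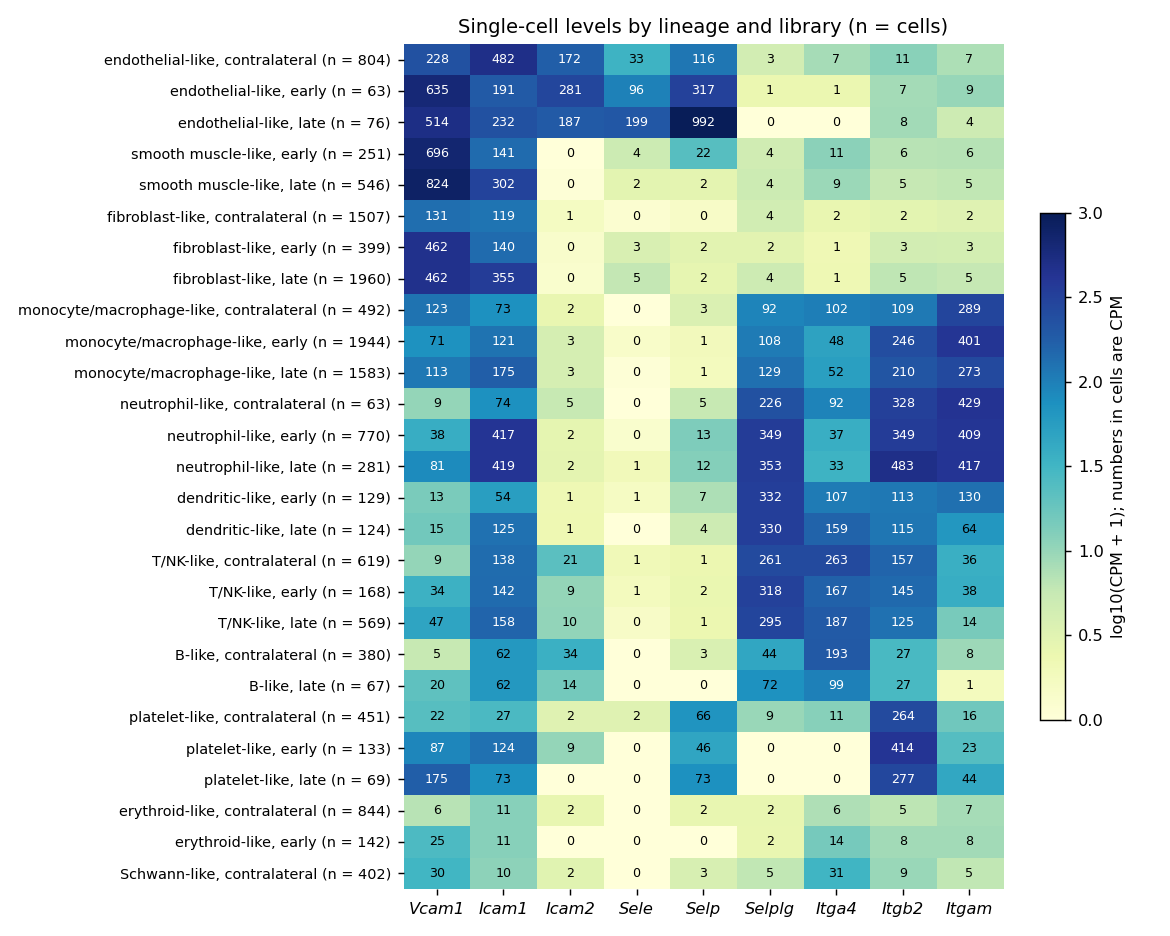
CPM of summed UMIs of the 9 members (columns) in each cell class and library (rows), printed in each field and shown as log10(CPM + 1) by color, for classes with at least 50 cells in a library. Icam2, Sele, and Selp are concentrated in endothelial-like rows (172, 33.1, and 116 CPM in the contralateral library), and Selplg, Itgb2, and Itgam in leukocyte rows.

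In endothelial-like cells both selectins were higher in the AVF libraries, and they had the largest ratios of the 5 wall members in late against contralateral. Selp was at 116 CPM (104 to 129) in the contralateral, 317 CPM (276 to 363) in the early, and 992 CPM (907 to 1082) in the late library, a ratio of 2.74 (2.30 to 3.26) in early and 8.57 (7.46 to 9.85) in late against contralateral. Sele was at 33.1 CPM (26.9 to 40.3), 95.7 CPM (73.7 to 122), and 199 CPM (162 to 241), a ratio of 2.89 (2.08 to 4.01) and 6.01 (4.51 to 8.01). These transcripts sat in few cells. In the late library 11 of the 76 endothelial-like cells held all 509 Selp UMIs, and 1 cell held 47.7% of them. The 102 Sele UMIs of the late library lay in 9 cells, with 31.4% in 1 cell, and the 212 Selp UMIs of the early library lay in 27 cells, with 23.6% in 1 cell. In the contralateral library 343 Selp UMIs were spread over 115 of 804 cells. Without the cell with most UMIs of the gene in each library, Selp was at 105, 246, and 549 CPM and Sele at 28.1, 63.6, and 141 CPM. With finer clusters, 2 clusters were endothelial-like: cluster 7 had 700 contralateral, 63 early, and 76 late cells and was led by Ccl21a, and cluster 23 had 106 contralateral cells and none of the AVF libraries. Within contralateral cluster 7, Selp was at 116 CPM and Sele at 43.3 CPM, and in cluster 23 at 116 and 6.11 CPM. A high value of the AVF libraries thus rests on a small number of cells of 1 pool each.

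Vcam1 and Icam1 moved in opposite directions in endothelial-like cells. Vcam1 was at 228 CPM (211 to 246) in the contralateral, 635 CPM (576 to 699) in the early, and 514 CPM (454 to 580) in the late library, with ratios of 2.79 (2.46 to 3.15) and 2.25 (1.95 to 2.60). In the early library 1 cell held 53.6% of the 425 Vcam1 UMIs, and in the late library 1 cell held 33.7% of 264. Icam1 was at 482 CPM (457 to 507), 191 CPM (160 to 228), and 232 CPM (192 to 277), with ratios of 0.397 (0.329 to 0.476) and 0.481 (0.396 to 0.581). Icam2 was at 172 CPM (158 to 188), 281 CPM (242 to 324), and 187 CPM (151 to 228), and 1 cell held 42.7% of the 96 late UMIs. Leaving out, for each gene and library, the cell with most of its UMIs gave 169, 270, and 113 CPM of Icam2 in the contralateral, early, and late libraries, 213, 308, and 361 CPM of Vcam1, and 439, 126, and 200 CPM of Icam1. Late Icam2 thus lay above the contralateral level with that cell and below it without. The summed endothelial markers in these cells were 12563, 8503, and 6162 CPM in the contralateral, early, and late libraries, and the part of this difference in the levels above was not tested.

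Fibroblast-like cells held the largest share of the Vcam1 UMIs of any class in each of the 3 libraries. Their Vcam1 level was at 131 CPM in the contralateral and 462 CPM in both the early and the late library, a ratio of 3.53 (3.33 to 3.73) and 3.53 (3.35 to 3.71). Different clusters made up this class: cluster 2 held 1286 of the 1507 contralateral fibroblast-like cells, and clusters 3 and 4 held 67 and 330 of the 399 early and 1019 and 918 of the 1960 late ones. Cluster 3 was the only fibroblast-like cluster with at least 50 cells in each of the 3 libraries (215, 67, and 1019 cells). Within cluster 3, Vcam1 was at 108, 420, and 406 CPM in the contralateral, early, and late library. Icam1 in that cluster was at 158, 254, and 424 CPM, and over the whole class at 119, 140, and 355 CPM. Fibroblast-like cells made up 23.8%, 8.39%, and 33.7% of the cells of the 3 libraries and held 57.6%, 43.0%, and 62.2% of the Vcam1 UMIs. Smooth muscle-like cells held a further 29.2% in the early and 28.1% in the late library. Their Vcam1 level was 696 CPM in the early and 824 CPM in the late library (438 and 576 CPM with finer clusters), and their Icam1 level was 141 and 302 CPM. Monocyte and macrophage-like cells had 123, 70.9, and 113 CPM of Vcam1 (126, 94.4, and 155 CPM within cluster 1). For comparison, Vcam1 was at 9.34, 33.7, and 47.0 CPM in T and NK-like cells.

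**Figure D4:**
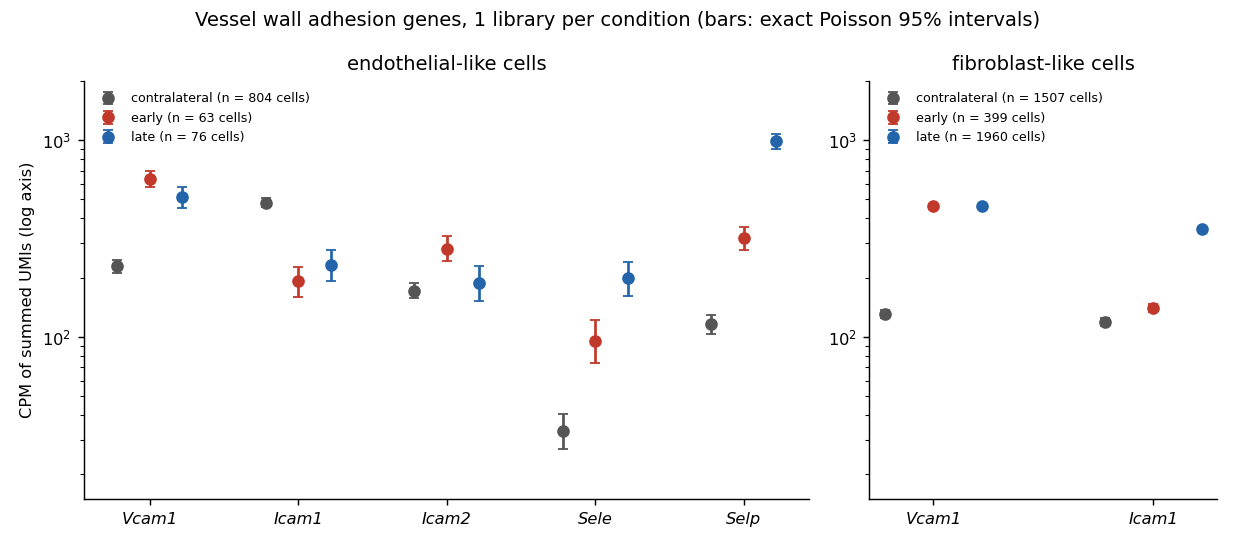
CPM of summed UMIs of Vcam1, Icam1, Icam2, Sele, and Selp in endothelial-like cells and of Vcam1 and Icam1 in fibroblast-like cells of the contralateral, early, and late libraries (log axis), with bars for exact Poisson 95% intervals. Vcam1 is higher in AVF than in contralateral endothelial-like and fibroblast-like cells (635 against 228 CPM and 462 against 131 CPM in the early library), while endothelial-like Icam1 is lower (191 against 482 CPM).

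Sele was also counted in fibroblast-like cells, at 0.24 CPM (3 UMIs) in the contralateral, 2.85 CPM (32 UMIs) in the early, and 4.91 CPM (246 UMIs) in the late library, where 42 cells held them. That class held 64.6% of the late Sele UMIs, against 26.8% in endothelial-like cells. Endothelial markers summed to 163, 153, and 139 CPM in fibroblast-like cells. Per 1000 CPM of these markers, Sele was at 1.48, 18.6, and 35.3 CPM in fibroblast-like and at 2.63, 11.3, and 32.3 CPM in endothelial-like cells of the contralateral, early, and late libraries. Icam2 per 1000 CPM of the same markers was at 3.93, 2.33, and 2.15 CPM in fibroblast-like and at 13.7, 33.1, and 30.4 CPM in endothelial-like cells. Selp per 1000 CPM was at 2.95, 13.4, and 12.3 CPM in fibroblast-like and at 9.21, 37.3, and 161 CPM in endothelial-like cells. In smooth muscle-like cells of the early and late libraries, Sele per 1000 CPM was at 17.7 and 11.5 CPM and Selp at 99.2 and 11.01 CPM, beside the endothelial-like values above. In the early library 1 smooth muscle-like cell held 17 of the 20 Sele UMIs, and without it Sele was at 0.595 CPM in that class (3.94 CPM with it). The class held 25.1% of the early Selp UMIs (112 UMIs in 21 of 251 cells, with 33.9% in 1 cell). With finer clusters, where the class had 173 early and 368 late cells, these levels were lower. Selp was then at 2.55 and 0.628 CPM in the early and late libraries, against 22.07 and 1.889 CPM with the main clusters. Sele was at 0.51 and 1.26 CPM, against 3.94 and 1.97 CPM.

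Itgam was held by monocyte and macrophage-like cells, with 65.2% of its UMIs in the contralateral, 84.7% in the early, and 85.2% in the late library. That class made up 7.79%, 40.9%, and 27.2% of the cells. Cells left unnamed, 11.2% of the contralateral library, held 11.6% of its Itgam UMIs. With up to 20% mitochondrial UMIs the class had 1079 of 7846, 3056 of 5285, and 2443 of 6342 cells of the 3 libraries. The Itgam level of monocyte and macrophage-like cells was 289 CPM (270 to 308) in the contralateral, 401 CPM (394 to 409) in the early, and 273 CPM (266 to 279) in the late library. The classes differ in makeup: the contralateral one is mostly cluster 14 (425 cells, led by Cd163, Folr2, and Lyve1), and those of the AVFs are clusters 0 (led by Il1b, Lyz2, and Cd14) and 1 (led by complement C1q genes). Itgam went from 423 CPM in early to 269 CPM in late cells of cluster 0, and from 220 CPM in contralateral to 370 in early and 277 CPM in late cells of cluster 1. Neutrophil-like cells had 429 CPM (346 to 526), 409 CPM (387 to 432), and 417 CPM (378 to 458), with overlapping intervals.

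Itgb2 in monocyte and macrophage-like cells was at 109 CPM (97.7 to 121) in the contralateral, 246 CPM (240 to 251) in the early, and 210 CPM (204 to 216) in the late library. In cluster 0 it was at 301 CPM in early and 291 CPM in late cells, in cluster 1 at 80.4, 166, and 128 CPM in the 3 libraries, and in cluster 14 at 106 CPM in contralateral cells. Neutrophil-like cells had 328, 349, and 483 CPM. Platelet-like barcodes, which were shallow, had 264, 414, and 277 CPM of Itgb2 and 66.5, 46.02, and 73.0 CPM of Selp. The background in fibroblast-like cells, which should lack CD18, was 2.00, 3.38, and 5.21 CPM.

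Selplg was spread over more leukocyte classes than Itgam. Neutrophil-like cells had 226 CPM (167 to 299) in the contralateral, 349 CPM (329 to 370) in the early, and 353 CPM (318 to 391) in the late library. T and NK-like cells had 261, 318, and 295 CPM, and dendritic-like cells 332 CPM in the early and 330 CPM in the late library. Monocyte and macrophage-like cells had 91.7, 108, and 129 CPM, and endothelial-like cells, which are not a source of PSGL-1, 3.37, 1.495, and 0 CPM (0 of 76 late cells with a UMI, with an upper bound of 7.19 CPM). In the contralateral library 56.7% of the Selplg UMIs lay in T and NK-like cells, which were 9.80% of the cells, and 21.1% in monocyte and macrophage-like cells. In the early library 56.9% lay in monocyte and macrophage-like and 20.9% in neutrophil-like cells.

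Itga4 was highest in T and NK-like cells of each library and lower in the AVF libraries within each leukocyte class with a contralateral value. T and NK-like cells had 263 CPM (245 to 283), 167 CPM (145 to 191), and 187 CPM (175 to 201) in the contralateral, early, and late libraries. Within cluster 6, the larger cluster of that class, the values were 171, 149, and 170 CPM, with overlapping intervals. The contralateral class also held cluster 17 (143 cells, led by Gzma and Nkg7), with Itga4 at 978 CPM and Itgam at 297 CPM, against an Itgam level of 1.95 CPM in contralateral cluster 6. Monocyte and macrophage-like cells had 102 CPM (91.2 to 114), 47.7 CPM (45.2 to 50.3), and 52.1 CPM (49.2 to 55.0) of Itga4. Neutrophil-like cells had 92.3 CPM (56.4 to 143) from 20 UMIs in the contralateral library and 36.9 and 32.7 CPM in the AVF libraries.

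**Figure D5:**
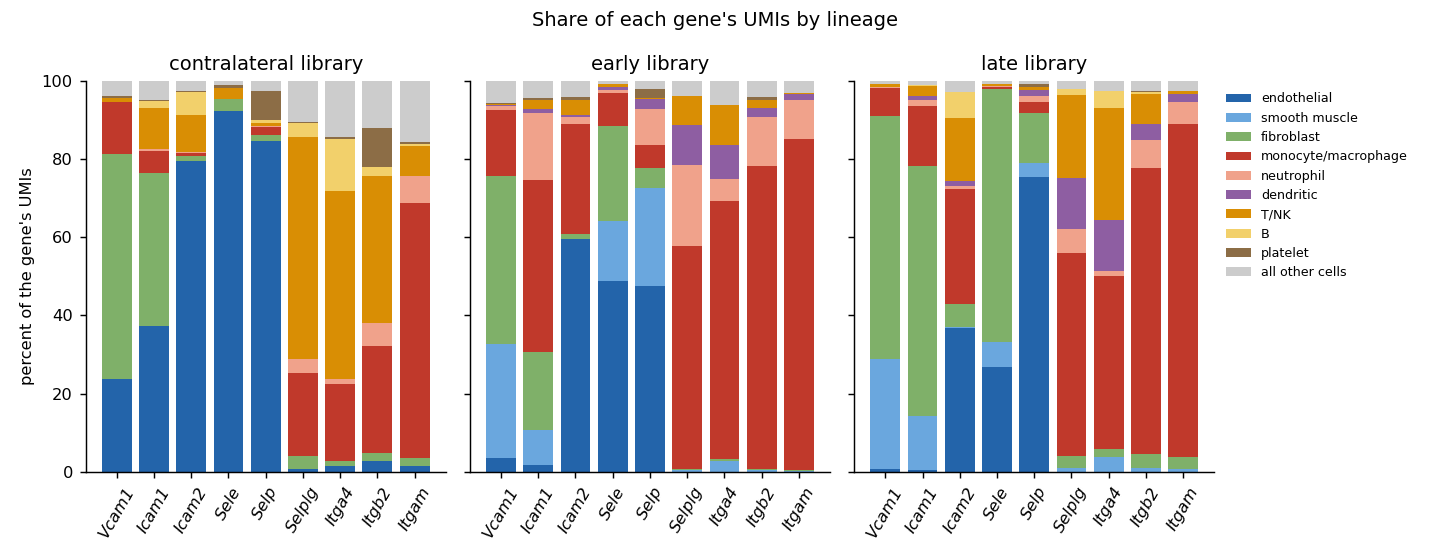
Share of each member's UMIs (percent, stacked bars to 100) held by each cell class, in 1 panel each for the contralateral, early, and late libraries. Itgam lies mostly in monocyte and macrophage-like cells (65.2%, 84.7%, and 85.2%), the largest share of Vcam1 lies in fibroblast-like cells (57.6%, 43.0%, and 62.2%), and that of Selp in endothelial-like cells (84.7%, 47.5%, and 75.4%).

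Icam1 was not confined to endothelium. In neutrophil-like cells it was at 73.8 CPM from 16 UMIs in the contralateral library and at 417 and 419 CPM in the early and late libraries, a ratio of 5.65 (3.47 to 9.91) and 5.67 (3.45 to 10.0). The contralateral neutrophil-like cell with most Icam1 UMIs held 7 of the 16, and without it the level was 41.8 CPM. Both ratios depend on that cell. Monocyte and macrophage-like cells had 72.8, 121, and 175 CPM of Icam1. Endothelial-like cells held 37.4% of the Icam1 UMIs of the contralateral library, while monocyte and macrophage-like cells held 43.9% in the early and fibroblast-like cells 64.1% in the late library. Over all cells of a library Icam1 was at 131, 141, and 282 CPM, whereas the bulk mean was 109 ± 68.3 (SD, n = 7), 31.7 ± 21.6 (SD, n = 8), and 59.6 ± 8.54 (SD, n = 5) CPM in contralateral veins, early AVFs, and late AVFs. The 2 assays are given side by side without a test.

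Other genes of the adhesion cascade were read from 5 lists of 49 genes, of which 41 were tested. In early AVFs 4 were called higher and 7 lower, in mid AVFs 2 and 7, and in late AVFs 0 and 4, against backgrounds of 6.17% and 6.45%, 2.74% and 3.31%, and 2.49% and 2.85% of all tested genes. The median log2 fold change of the 41 genes was -0.05 at day 3, -0.11 at day 10, and -0.08 at day 21, beside -0.01, -0.10, and -0.09 over all genes tested. Among surface molecules of endothelium and leukocytes, Cd44, a hyaluronan receptor, rose from 101 ± 61.0 (SD, n = 7) to 604 ± 77.5 CPM (SD, n = 8) in early AVFs (log2 fold change 2.57, adjusted p = 0.000225) and was called in mid AVFs (2.17, adjusted p = 0.00414). Emcn, an endothelial sialomucin, fell by 2.85 on the log2 scale in early AVFs (adjusted p = 7.65e-08) and by 3.16 and 3.11 in mid and late AVFs. Aoc3, the vascular adhesion protein 1, fell by 1.24 in early AVFs (adjusted p = 0.00457).

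Junction molecules of endothelium were called lower or not called. Of 8 tested, 3 fell in early AVFs, namely Pecam1 (by 1.80 on the log2 scale), Jam2 (by 1.64), and Esam (by 1.47), each a molecule of endothelial contacts. Cdh5, the VE-cadherin gene, had a log2 fold change of -0.81 in early AVFs that missed the threshold (adjusted p = 0.0603), and it fell by 1.75 in mid and by 2.01 in late AVFs (adjusted p = 0.00194 and 0.000722). Among 8 integrin partners, Itga5, the fibronectin receptor chain, rose by 1.84 in early AVFs (adjusted p = 0.00247) and Itga1, a collagen receptor chain, fell by 2.46 (adjusted p = 3.38e-07). Of 9 genes for integrin activation, the Src-family kinase gene Fgr (log2 fold change 4.67, adjusted p = 0.00294) and the actin-bundling gene Lcp1 (1.94, adjusted p = 0.000889) rose in early AVFs. Of 7 enzymes that build selectin ligands, St3gal6, a sialyltransferase, was called lower at all 3 times (-2.30, -2.22, and -1.94), and the others were not called.

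For each member, the genes whose profile over the 25 bulk libraries was nearest were found by the root mean square difference of centred log2(CPM + 1) values. Selplg was nearest to Rac2 (0.56), Ucp2, and Cxcl16, against an SD of 1.65 for Selplg itself over the libraries. Itgb2 was nearest to Pirb (0.72) and Tbxas1 (SD of Itgb2 1.58), and Itgam to Pou2f2 (0.68), Ncf1, and Bcl2a1b (SD of Itgam 1.42). Itga4 was nearest to Ehbp1l1 (0.49), Lsp1, and Fam234a (SD of Itga4 1.02). Among wall molecules, Vcam1 was nearest to Mapk1ip1l (0.36; SD of Vcam1 0.64), Icam1 to Atp11b (0.51; SD of Icam1 1.33), Icam2 to Rnf113a2 (0.35; SD of Icam2 1.27), Sele to AA414768 (0.36; SD of Sele 1.30), and Selp to Nup155 (0.53; SD of Selp 1.05). None of the 9 members was among the 3 nearest genes of another. The libraries share the same groups and the same uneven veins, and these distances are descriptions.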

How the data were processed

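Bulk values are the read counts per gene deposited by the authors for 25 libraries, whole numbers without normalization. Submitters' notes name mm10, GRCm38, STAR, and Cell Ranger, and the counter used for the bulk table is not given in the sources used here. Identifiers were named from the single-cell feature lists (32210) or the GENCODE annotation (19962), and 4808 had no symbol. The single-cell files hold UMI counts deposited by the authors (Cell Ranger 6.0.2). The tables held 0 columns of other series.

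Genes whose DESeq2-normalized counts averaged 100 or more were fitted with edgeR 4.0.16 in R 4.3.3 (TMM scaling, group means, quasi-likelihood F test, 25 libraries together). SE is the size of the log2 fold change divided by the square root of F. CPM are counts over the TMM-scaled library size. Alternatives used DESeq2 1.42.0 and limma 3.58.1. The pseudocount was 1 CPM (0.1 in an alternative).

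Cells with 200 to 6000 genes and at most 10% mitochondrial UMIs were kept and clustered in scanpy 1.11.5 (Python 3.11.15, leidenalg 0.10.2, igraph 0.11.9). Clustering used 2000 variable genes, 12 components, 20 neighbors, and resolution 0.5. The members and the genes of the adhesion lists were left out of the variable genes. Other markers of cell classes could be among them, so clusters were not formed apart from the markers that named them. A cluster was named from fixed markers, and clusters 5 and 11 stayed unnamed. Scrublet marked 0, 2, and 120 cells (contralateral, early, late) and did not work in the first 2 libraries, so no doublets were removed except in an alternative. Lineage CPM are summed UMIs of a gene over all UMIs, with exact Poisson intervals. Ratio intervals are exact conditional binomial.

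All 9 members, the 3 genes nearest to each in profile, and the 12 genes of the adhesion lists with the smallest adjusted p among those called were named by rule, and 1 of the nearest genes is not reported here. Members and lists were chosen with earlier results of these data known.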

Additional observations from a re-analysis of the deposited data

Results flagged for a closer look

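Of 36 groups of libraries (9 members in 4 groups), 5 held a library whose gap to its nearest neighbor was above Dixon's 95% critical value on the log2(CPM + 1) scale, where chance gives about 1 in 20. Icam1 was at 2.72 CPM in contralateral vein 34, and the next vein was at 81.5 CPM (a gap of 0.752 of the range of log2(CPM + 1), as for the shares that follow). Icam2 was at 0.125 CPM in contralateral vein 28, against 25.3 CPM in the next vein (0.718 of the range), and Selplg was at 0.562 CPM in the same vein, against 12.3 CPM (0.595 of the range). Vein 28 also had the highest Icam1 (228 CPM), Itga4 (58.3 CPM), and Itgb2 (208 CPM) of the veins, and the highest summed B cell (3390 CPM, against 187 to 956 CPM in the others), T and NK cell (210 CPM, against 31.5 to 87.7 CPM), and dendritic cell markers (568 CPM, against 121 to 295 CPM). The part of these cells in its member values was not tested. The other 2 were AVFs: Vcam1 was at 204 CPM in mid AVF 12, against 285 CPM in the next (0.727 of the range), and Icam2 was at 17 CPM in late AVF 24, against 24.9 CPM (0.865 of the range).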

How the results depend on the processing

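Of 2511 bulk values of members under alternatives, 2394 kept their direction and their side of the threshold, 34 lost and 45 gained a call, and 38 changed direction. Of 726 single-cell levels, 662 moved by less than their counting interval and 64 by more (9 with the richest endothelial-like cell left out, chosen after seeing the data, 6 with Scrublet doublets left out, 23 with up to 20% mitochondrial UMIs, and 26 at clustering resolution 1.0). The number of members called in mid AVFs was 2 with DESeq2, 2 with the likelihood ratio test, 2 with voom, and 0 when only the groups compared were fitted, where 1418, 1158, 295, and 403 of all genes were called (767 in the test of the report). In late AVFs it was 2 with voom and 0 with only the groups compared (200 and 279 of all genes), and in late against early AVFs it was 1 with DESeq2, with voom, and with only the groups compared (753, 1451, and 596 of all genes). In female mice alone (edgeR's quasi-likelihood test) it was 0 at day 3, 0 at day 10, and 0 at day 21, with 5, 2, and 3 members at an unadjusted p under 0.05 and 327, 192, and 173 of all genes called. Selplg in female mice alone had an early log2 fold change of 2.68 (adjusted p = 0.0723). In a fit with an interaction of sex and group (edgeR), its early change in male minus that in female mice was 0.48 (adjusted p = 0.973), and the adjusted p of that term was at least 0.842 for every member at each time. Leaving out 4 contralateral veins (28, 31, 34, and 632), a choice made after seeing the data, gave 5 members at day 3, 5 at day 10, 6 at day 21, and 1 (Itgam) in late against early AVFs. In that fit 2280, 1299, and 1114 of all genes were called against contralateral veins, up from 1599, 767, and 676. In late against early AVFs it called 1115 of all genes, up from 381. Leaving out early AVFs 5 and 6, also chosen after seeing the data, removed the early call of Itgb2 (1.87, adjusted p = 0.0134), as did fitting only the groups compared (2.12, adjusted p = 0.0258).

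When 1 library was left out, 3 to 4 members were called in early, 0 to 4 in mid, and 0 to 4 in late AVFs, and 0 to 0 in the comparisons between AVF times. Over these fits 1370 to 1825, 530 to 955, and 432 to 889 of all genes were called in early, mid, and late AVFs. Between AVF times it was 0 to 305 in mid against early, 32 to 549 in late against early, and 0 in late against mid. The count of 4 in mid and in late AVFs came without contralateral vein 28 (Icam2, Selplg, Itga4, and Itgb2). Without that vein 862 and 737 of all genes were called in mid and late AVFs. The number of within-library ratios past an adjusted p of 0.05 was 7, and 6 to 13 without 1 library, with 13 without vein 28.

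Several values changed direction. Selp in early AVFs turned to -0.179 (voom) and -0.368 (4 veins out). Against early AVFs, Vcam1 in mid AVFs turned to 0.0267 (voom) and 0.0509 (filterByExpr), and Itgb2 to 0.0165 (voom) and 0.0242 (early AVFs 5 and 6 out). In late against mid AVFs, Selplg turned to 0.00421 (no filter) and 0.0532 (female mice) and Sele to -0.0962 (female mice). Relative to Ptprc, Itgam in mid AVFs turned to -0.0436 (pseudocount 0.1), and with other reference genes Itga4 in mid AVFs was 0.417 and Itgam in late AVFs was 0.26. Without 1 library, Vcam1 ranged from -0.0933 to 0.094 (mid against early) and from -0.0612 to 0.268 (late against early), Icam2 from -0.053 to 0.168 and Selplg from -0.0724 to 0.0366 (late against mid). Relative to Ptprc, Itga4 ranged from -1.26 to 0.66 (early), -0.802 to 1.12 (mid), and -0.609 to 1.31 (late), and Itgam from -0.315 to 1.06 (mid) and -0.66 to 0.715 (late). The causes were not tested.

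No paired analysis was possible because the groups share no vessel numbers. No member was under the count minimum, so the tests planned for that case gave no value. The precision of the bulk comparisons was limited by the spread among contralateral veins, and that of the single-cell data by 1 library for each condition and by 63 and 76 endothelial-like cells in the AVF libraries.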
